A study of Homo sapiens with 24 samples.

Results

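The 51 genes described here are the Mediator and TAF (TBP-associated factor) genes of a time course of labelled RNA in U2OS cells. They were taken by symbol, as MED or TAF followed by a number and at most 1 letter, with a mean of at least 1 TPM, a transcript's abundance per length as a share of its library, over all 24 libraries and TPM summed per symbol. Of 54 matching symbols, 51 were kept, 29 Mediator and 22 TAF genes, among 13416 genes kept of 25341 symbols. MED12L, TAF1L and TAF7L were left out, with means of 0.0075, 0.204 and 0.219 TPM. Their combined label, Mediator and TFIID subunits, was only partly borne out by what the genes encode. TAF1A, TAF1B, TAF1C and TAF1D encode subunits of SL1, the TBP complex of RNA polymerase I; TAF5L and TAF6L encode subunits of the SAGA coactivator; and TAF15 encodes an RNA-binding protein of the FET family. The 22 genes are therefore called TAF genes below, and the 13 that encode canonical TFIID subunits are given apart.

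Mediator is the multisubunit bridge between DNA-bound activators and RNA polymerase II. Its head and middle modules contact the polymerase, its tail receives activators, MED14 joins these parts as a backbone, and a dissociable kinase module built on MED12 and MED13 carries CDK8 or CDK19 with cyclin C. TFIID, made of TBP and the TAFs, recognizes core promoters, and several of its TAFs pair through histone folds.

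The cells were U2OS, a human osteosarcoma line, as a Tet-off double stable line carrying the phosphomimetic mutant TOB2 S254D. TOB2 is a BTG/Tob protein that binds CCR4-NOT, the complex that shortens poly(A) tails. Only uninduced cells received doxycycline, and effects of the drug and of the mutant protein cannot be told apart in any comparison of the 2 arms. RNA was labelled with bromouridine (BrU) and chased, cytoplasmic RNA was extracted, and BrU-RNA was immunoprecipitated with an antibody. Libraries came from 0, 0.5, 1, 2, 4 and 6 h of chase, with 2 replicates of each of the 12 groups. The labels do not say whether the replicates were separate cultures, so p-values measure only the spread between these samples, which may be technical. The design asks how mRNA decay changes with the mutant. As TPM is a share of each library, a slope along the chase is relative to all other labelled RNA of that library: a rising gene gained share against the rest, and no slope is an absolute half-life. Slower loss and labelled RNA still reaching the cytoplasm during the chase cannot be told apart. In bulk samples such as these, fewer cells of a type and less RNA per cell cannot be told apart.

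TOB2 lay between 92.34 and 267.35 TPM in the uninduced libraries and between 499.03 and 724.96 TPM in the induced ones, with no overlap. The cell type markers did not follow their lists. Of 8 osteoblast genes, COL1A1 (mean 12.5 TPM), RUNX2 (4.13) and BGLAP (1.72) were above 1 TPM, and SP7, ALPL, SPP1, COL1A2 and IBSP were between 0 and 0.142. Of 6 epithelial genes, KRT18 (1584), KRT8 (828) and CLDN4 (1.22) were above 1 TPM, and CDH1, KRT19 and EPCAM between 0 and 0.179. Of 5 mesenchymal genes VIM had 580.4 TPM, and FN1, SPARC, CDH2 and TWIST1 were between 0 and 0.274. Among leukocyte genes LYZ had 29.7 TPM (11.66 to 60.35 by library), CD14 1.19, PTPRC 0.149 and CD3E 0.0088. The noncoding RNAs RMRP, MIR6723 and RPPH1 took from 7.14% to 27.5% of all TPM, most at the start of the chase and most of all in induced replicate 2 at 0 and 0.5 h. The depth is unknown, since TPM keeps none. The 29 Mediator genes together held 0.118% to 0.154% of TPM, and the 22 TAF genes 0.0901% to 0.124%.

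Without induction, most of the 51 mRNAs held their place or gained share as labelled RNA aged, and a few fell fast. Slopes came from straight lines on log2(TPM + 1) against hours, fitted with limma over all genes, and were called at a Benjamini-Hochberg adjusted p under 0.05 over 13416 genes. By that rule 31 members rose and 10 fell, where 42.8% of all genes tested rose and 22.3% fell. Of the 29 Mediator genes, 15 rose and 7 fell, with a median slope of 0.058 per hour and a range from -0.63 to 0.26. Of the 22 TAF genes, 16 rose and 3 fell, with a median of 0.087 and a range from -0.13 to 0.23. The median over all genes was 0.039. The 3 falling TAF genes became 1 when all replicate 1 libraries were left out. The Mediator median turned to -0.011 under quantile normalization, where TAF genes had 0.030 and all genes 0.019, and median-of-ratios scaling gave 0.0093, 0.039 and -0.0052 for Mediator, TAF and all genes. Of all called genes, 65.8% rose in TPM, and 48.4% under median-of-ratios scaling. Under quantile normalization 10 Mediator genes rose and 11 fell, and 7 TAF genes rose and 3 fell. Of all genes tested, 4699 rose and 3112 fell on that scale, against 5746 and 2993 in TPM.

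**Figure D1:**
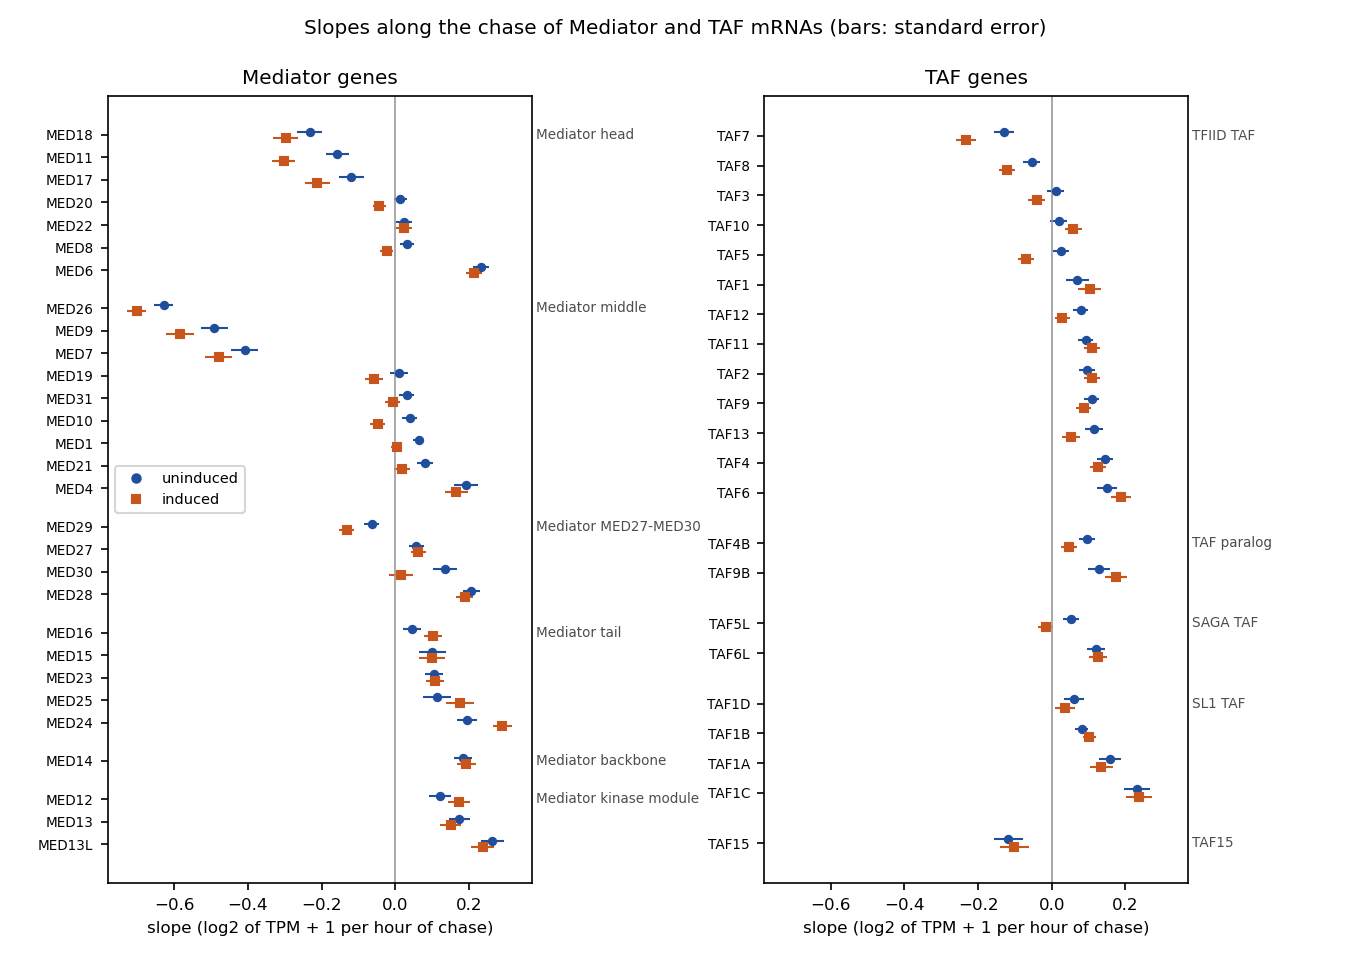
Slope of each member along the chase, in log2 of TPM + 1 per hour (horizontal axis), with its standard error, in the uninduced (circles) and induced (squares) arms. Genes are grouped by role; MED26 lies farthest left at -0.63 and -0.70, and the kinase module and tail genes lie to the right of 0 in both arms.

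Among the members, the steepest falls were in the Mediator middle module. MED26, which joins the form of Mediator that works with the polymerase in elongation, had 164.64 and 166.9 TPM at 0 h, 147.61 and 159.1 at 0.5 h, 121.19 and 126.62 at 1 h, 94.03 and 99.33 at 2 h, 35.4 and 38.5 at 4 h, and 12.52 and 10.43 at 6 h. Both libraries of each time lay below both of the time before. Its slope was -0.63 (SE 0.026, adjusted p = 3.06e-15), its mean fell 14.4-fold from 0 to 6 h, and 0.306% of all genes had a lower slope. MED9, another middle subunit, had 137.11 and 141.16 TPM at 0 h and 17.22 and 14.96 at 6 h, for a slope of -0.49 (SE 0.038, adjusted p = 1.26e-10). MED7, the middle subunit that forms a hinge with MED21, had 22.43 and 23.95 TPM at 0 h and 4.66 and 3.48 at 6 h, for a slope of -0.41 (SE 0.037, adjusted p = 1.72e-09). In all 3 genes both libraries at 6 h lay below both at 0 h. These genes were named for their low slopes over the same libraries, so such separation adds no support. Its share over all genes was not counted. The other middle genes did not follow: MED4 rose at 0.19 (SE 0.031), MED21 at 0.081 and MED1 at 0.064, and MED10, MED19 and MED31 did not pass the threshold, with slopes of 0.040, 0.011 and 0.031. The MED1 slope turned to -0.011 under quantile normalization.

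The timing of these changes was read from a model with 1 mean per group. In uninduced cells 10 members rose and 2 fell from 0 to 2 h, where 19.1% and 3.76% of all genes did, and 14 rose and 7 fell from 2 to 6 h, where 24.0% and 15.8% did. In induced cells the counts were 11 and 2 for the early interval, beside 23.1% and 4.65%, and 15 and 16 for the late one, beside 23.7% and 24.0%. Leaving out 1 library of the times compared moved several of these: rising TAF genes in uninduced cells went from 6 to between 1 and 3 early, without any 1 of the 4 libraries at 0 and 2 h, and from 7 to between 1 and 4 late, without any 1 of the 4 libraries at 2 and 6 h. In induced cells early rises went from 6 to 3 Mediator genes and from 5 to 1 or 2 TAF genes without replicate 2 at 0 h or replicate 1 at 2 h, and late rises from 7 to 3 and from 8 to 1 without replicate 2 at 2 h, from 7 to 4 and from 8 to 2 without replicate 1 at 6 h, and to 2 TAF genes without replicate 2 at 6 h. Late falls of TAF genes in induced cells went from 5 to 3 without replicate 1 at 2 h and to 2 without either library at 6 h. MED26 fell already from 0 to 2 h, by 0.77 on the log2 scale (SE 0.12, adjusted p = 0.000309), and by 2.97 from 2 to 6 h. MED9 changed by -0.44 in the first interval (SE 0.15, adjusted p = 0.0476), a call lost under 25 of its alternatives, and fell by 2.60 in the second. MED7 changed by -1.97 (SE 0.25, adjusted p = 1.34e-05) from 2 to 6 h and did not pass before. Its values at 0.5 h, 20.59 and 29.97 TPM, lay on both sides of those at 0 h.

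**Figure D2:**
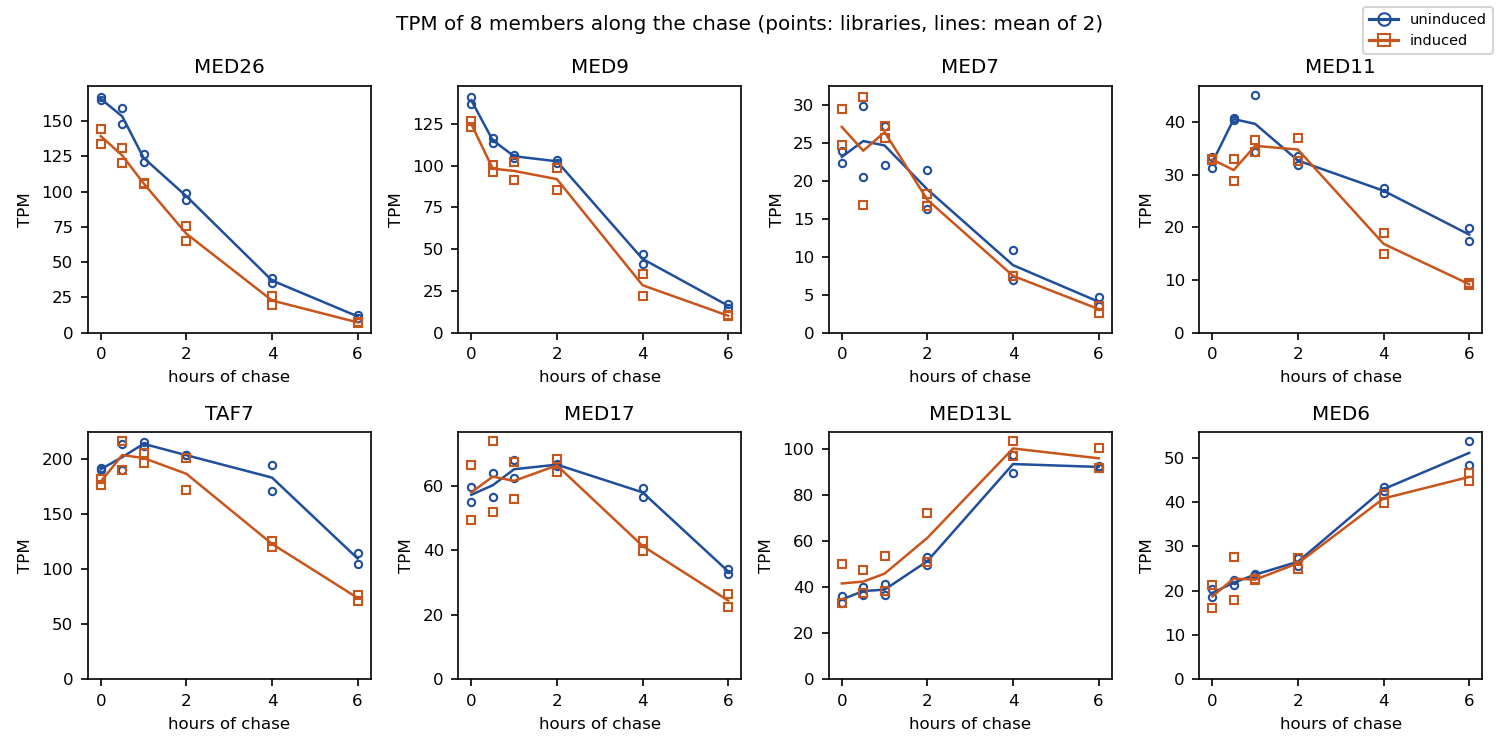
TPM (vertical axis, from 0) against hours of chase for 8 members, with each library as a point and the mean of 2 libraries as a line, in the uninduced (circles) and induced (squares) arms. MED26 and MED9 have their highest mean at 0 h in both arms. MED11, MED17 and TAF7 fall after 2 h, MED11 after an uninduced peak of its mean at 0.5 h. MED13L and MED6 rise in share.

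The promoters shown are from the ends of the slope range within the Mediator or TAF genes, among members with 1 promoter entry. That of TAF1C, with the highest TAF slope, is left out. RefSeq sequences (GRCh38.p14) covering 250 bases before the start were found for 40 of the 51 members. Capitals mark matches, on either strand and possibly overlapping, to the GC box GGGCGG, the CCAAT box, the TATA box (TATAAA), the ETS motif CCGGAAG and the cyclic AMP response half-site with its flank (TGACGT). MED26 and MED9 had the lowest Mediator slopes, TAF7 the lowest TAF slope and MED13L the highest Mediator slope.
MED26 promoter (chr19:16628205-16628454, minus strand): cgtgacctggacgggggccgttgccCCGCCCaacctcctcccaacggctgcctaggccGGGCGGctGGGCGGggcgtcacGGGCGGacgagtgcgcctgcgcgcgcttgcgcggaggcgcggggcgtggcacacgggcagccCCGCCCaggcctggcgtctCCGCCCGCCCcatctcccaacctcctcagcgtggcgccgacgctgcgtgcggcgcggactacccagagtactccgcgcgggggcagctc
MED9 promoter (chr17:17476750-17476999, plus strand): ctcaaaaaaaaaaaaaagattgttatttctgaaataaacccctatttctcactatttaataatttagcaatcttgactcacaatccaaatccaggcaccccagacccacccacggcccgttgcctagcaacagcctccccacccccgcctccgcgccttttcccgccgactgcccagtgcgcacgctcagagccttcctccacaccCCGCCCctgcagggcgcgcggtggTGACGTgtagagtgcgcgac
TAF7 promoter (chr5:141320785-141321034, minus strand): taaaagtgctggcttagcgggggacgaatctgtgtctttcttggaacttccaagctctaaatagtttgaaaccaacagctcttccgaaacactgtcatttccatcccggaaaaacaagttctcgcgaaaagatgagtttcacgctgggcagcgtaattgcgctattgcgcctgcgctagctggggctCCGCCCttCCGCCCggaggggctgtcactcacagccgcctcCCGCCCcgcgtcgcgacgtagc
MED13L promoter (chr12:116277694-116277943, minus strand): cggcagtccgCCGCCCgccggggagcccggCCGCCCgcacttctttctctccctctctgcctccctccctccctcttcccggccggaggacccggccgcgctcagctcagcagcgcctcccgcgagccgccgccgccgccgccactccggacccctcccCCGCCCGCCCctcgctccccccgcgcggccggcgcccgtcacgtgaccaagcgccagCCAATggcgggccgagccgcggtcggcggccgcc
The MED26 window held 7 GC boxes, the MED9 window 1 with 1 TGACGT, the TAF7 window 3, and the MED13L window 4 with 1 CCAAT. None of these 4 windows held TATAAA. Over the 40 members, GGGCGG was present in 25 (62.5%, against 42.6% of 35116 promoters in the table), CCAAT in 17 (42.5% against 32.0%), CCGGAAG in 12 (30.0% against 8.52%), TGACGT in 8 (20.0% against 7.1%) and TATAAA in 2 (5.0% against 10.7%). A member was counted if any of its promoter entries held the motif, while the table was counted entry by entry. The paired percentages are therefore in unlike units, and members with several entries had more chances of a match. The windows with TATAAA were those of MED7 and MED16. By slope, CCGGAAG was in 7 of the 24 rising members with a window, 3 of the 8 falling ones and 2 of the 8 others. These are matches of letters and not mapped binding sites.

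The head module, which holds the polymerase at the promoter, had 1 gene that rose, 3 that fell and 3 that did not pass. Of all genes, 42.8% rose and 22.3% fell. MED18, which pairs with MED20, had 23.18 and 22.71 TPM at 0 h and 8.08 and 9.05 at 6 h, for a slope of -0.23 (SE 0.034, adjusted p = 2.3e-06). MED11, which pairs with MED22, had 31.19 and 33.42 TPM at 0 h, 40.72 and 40.37 at 0.5 h, 45.03 and 34.25 at 1 h, 33.47 and 31.88 at 2 h, 27.44 and 26.43 at 4 h, and 17.41 and 19.82 at 6 h. It was highest at 0.5 to 1 h and fell later, with a slope of -0.16 (SE 0.031, adjusted p = 0.000117). MED17, the head scaffold, had 59.65 and 54.93 TPM at 0 h, 66.94 and 66.38 at 2 h and 32.74 and 34.21 at 6 h, and its slope was -0.12 (SE 0.034, adjusted p = 0.00353). MED18, MED17 and MED11 fell from 2 to 6 h by 1.44, 0.97 and 0.78 on the log2 scale and did not pass from 0 to 2 h. The partners did not share these slopes: MED20 and MED22 had 0.014 and 0.024 and did not pass. MED6, a head subunit at the junction with the middle module, rose from 18.65 and 20.27 TPM to 48.36 and 53.8. Its slope was 0.23 (SE 0.021, adjusted p = 1.94e-09). MED8 did not pass at 0.032.

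Tail, backbone and kinase module genes rose or did not pass, and none of them fell, where 42.8% of all genes rose and 22.3% fell. In the tail, where activators dock, 4 of 5 rose: MED24 (slope 0.20, SE 0.027), MED25 (0.11), MED23 (0.11) and MED15 (0.10), while MED16 had 0.046 and did not pass. MED24 had 6.42 and 4.44 TPM at 0 h and 13.75 and 14.36 at 6 h. MED14, the backbone, rose at 0.18 (SE 0.025, adjusted p = 6.84e-07). All 3 kinase module genes rose: MED13L at 0.26 (SE 0.032, adjusted p = 1.34e-07), MED13 at 0.17 and MED12 at 0.12. MED13L had 36.34 and 32.97 TPM at 0 h, 53 and 49.79 at 2 h, 89.64 and 97.65 at 4 h, and 92.64 and 92.14 at 6 h; its level stopped climbing after 4 h. It had the highest slope of all members, with 2.59% of all genes above it. Of MED27 to MED30, subunits of metazoan Mediator, MED28, MED30 and MED27 rose at 0.21, 0.14 and 0.058, and MED29 fell at -0.064 (SE 0.020, adjusted p = 0.00731). MED28 had 48.11 and 49.31 TPM at 0 h and 129.84 and 98.68 at 6 h. MED27 turned to -0.018 under quantile normalization.

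Of the 13 TFIID subunit genes, 8 rose, 2 fell and 3 did not pass, where 42.8% of all genes rose and 22.3% fell. Their median slope was 0.079, beside 0.039 for all genes. TAF7, which binds TAF1 and restrains its acetyltransferase activity, had 189.38 and 191.53 TPM at 0 h, 213.29 and 189.59 at 0.5 h, 211.89 and 215.07 at 1 h, 203.38 and 202.93 at 2 h, 194.56 and 171.09 at 4 h, and 104.77 and 113.98 at 6 h. Its level was kept for 2 h and was lowest at 6 h. Its slope was -0.13 (SE 0.027, adjusted p = 0.000211). TAF8, a partner of TAF10, had 29.47 and 23.8 TPM at 0 h and 20.94 and 20.47 at 6 h, for a slope of -0.054 (SE 0.023, adjusted p = 0.0394), a call lost under 9 of its alternatives. TAF6 and TAF4, histone-fold subunits, rose at 0.15 each (SE 0.027 and 0.022), and TAF6 went from 9.62 and 6.73 TPM to 17.66 and 15.94. The remaining rising subunits were TAF13 (0.11), TAF9 (0.11), TAF2 (0.095), TAF11 (0.092), TAF12 (0.079) and TAF1 (0.070), the TAF1 call being lost under 19 of its alternatives. TAF3, TAF5 and TAF10 did not pass. AK6, which shares its locus with TAF9, had a mean of 87.7 TPM at 0 h without induction, and how reads were divided between them is not given in the sources used here.

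Outside TFIID, the SL1 and SAGA genes rose and TAF15 fell, where 42.8% of all genes rose and 22.3% fell. All 4 SL1 genes passed, led by TAF1C, with 11 and 6.92 TPM at 0 h, 25.55 and 22.33 at 6 h and a slope of 0.23 (SE 0.036, adjusted p = 5.29e-06). TAF1A followed at 0.16 (SE 0.031), from 20.69 and 25.69 TPM to 39.48 and 40.91, then TAF1B at 0.081 and TAF1D at 0.061. The TAF1D call was lost under 26 of its alternatives, and its slope was -0.013 under quantile normalization. TAF6L and TAF5L, of SAGA, rose at 0.12 and 0.053, the latter turning to -0.023 under quantile normalization. TAF15 fell at -0.12 (SE 0.039, adjusted p = 0.0117), from 60.18 and 30.95 TPM to 31.96 and 31.97, and one library at 0 h lay at the level of the late ones. With the chase cut to 4 h, 0 TAF and 4 Mediator genes fell. Of all genes tested, 1532 fell there, against 2993 over the whole chase.

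In the induced arm 25 members rose and 14 fell. Of the Mediator genes, 13 rose and 10 fell (median 0.019), and of the TAF genes 12 rose and 4 fell (median 0.073), where 41.6% of all genes rose and 29.0% fell, with a median of 0.028. The Mediator median changed sign with the scale, to -0.037 under quantile normalization, -0.018 under median-of-ratios scaling, -0.034 with protein-coding transcripts only and -0.029 without RMRP, MIR6723 and RPPH1, while the TAF median stayed above 0 in these 4. Of all called genes 58.9% rose in TPM and 44.7% without the 3 noncoding RNAs. MED26 had 134.02 and 144.64 TPM at 0 h and 7.36 and 7.08 at 6 h, for a slope of -0.70 (SE 0.026, adjusted p = 2.7e-16). MED9 (-0.59), MED7 (-0.48), MED11 (-0.30), MED18 (-0.30), TAF7 (-0.23) and MED17 (-0.21) followed. TAF5, MED19, MED10 and MED20 fell in the induced arm and did not pass in the uninduced one, with induced slopes of -0.070, -0.058, -0.048 and -0.044. These induced calls were lost under 3, 5, 19 and 9 of their alternatives. MED19 and MED10 had slopes of 0.015 and 0.0093 when the chase was cut to 4 h. MED24 had the highest slope, 0.29 (SE 0.027). The 4 falling TAF genes became 2 without induced replicate 2 at 6 h or without all replicate 1 libraries.

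Whether the slopes of the arms differ was tested directly, and no member passed, where 0.343% of all genes did in either direction and 0.335% were lower. At an unadjusted p under 0.05 there were 13 of 51 members, against 1673 of 13416 genes. MED11 had the smallest p, with a slope difference (induced minus uninduced) of -0.15 (SE 0.044, 95% interval -0.24 to -0.054, adjusted p = 0.15), and -0.15 and -0.14 in the separate replicates. TAF5 had -0.096 (95% interval -0.16 to -0.032, adjusted p = 0.18) and MED1 had -0.060 (adjusted p = 0.205). The medians were -0.038 for Mediator, -0.021 for TAF genes and -0.0094 for all genes. These calls depended on the scale. With RMRP, MIR6723 and RPPH1 removed and the rest rescaled, MED1, MED10, MED11 and TAF5 passed, with adjusted p from 0.0378 to 0.0426 and 2.36% of all genes lower. Without induced replicate 2 at 0 and 0.5 h, MED10 (-0.11, adjusted p = 0.0268) and MED11 (-0.17, adjusted p = 0.0375) passed.

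At 6 h of chase the arms were compared by their group means. Here 9 members were lower in induced cells and 0 were higher by limma's test, where 8.04% of all genes were lower and 1.10% higher; at an unadjusted p under 0.05 there were 16 members, against 2909 of 13416 genes. Of all called genes 12.1% were higher, and 27.8% under quantile normalization. The 9 were 6 of 29 Mediator and 3 of 22 TAF genes, and the medians were -0.16, -0.075 and, for all genes, 0.024. MED11 had 17.41 and 19.82 TPM in the uninduced and 9.03 and 9.34 in the induced libraries, a difference of -0.94 (SE 0.13, adjusted p = 0.000246) or 2.03-fold lower by means. MED30 had 51.29 and 47.21 against 26 and 31.52 TPM, a difference of -0.76 (SE 0.14, adjusted p = 0.00226). TAF7 had 104.77 and 113.98 against 70.87 and 76.4 TPM, a difference of -0.56 (SE 0.098, adjusted p = 0.00132). In these 3 genes, called from these same libraries, the arms did not overlap. Whether these gaps grew along the chase is a separate question, and by slope difference none of the 9 passed. MED11 alone of the 9 passed in the comparisons of change over time added after the data were seen. Those comparisons use the same 6 h values.

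The other 6 were MED9 with 17.22 and 14.96 against 9.75 and 10.44 TPM (-0.62, adjusted p = 0.0142), MED26 with 12.52 and 10.43 against 7.36 and 7.08 TPM (-0.60, adjusted p = 0.00474) and MED19 with 48.44 and 39.36 against 28.28 and 28.6 TPM (-0.60, adjusted p = 0.0169). TAF5, the WD40-repeat scaffold of TFIID, had 19.33 and 18.13 against 12.97 and 11.83 TPM (-0.56, adjusted p = 0.0202). MED10 had 387.98 and 305.32 against 258.95 and 227.38 TPM (-0.50, adjusted p = 0.0488), and TAF5L had 179.98 and 163.46 against 121.31 and 133.81 TPM (-0.43, adjusted p = 0.0138). No arm overlapped the other in any of the 9, but they were called from these same libraries, so their separation adds no support. Of all genes, 28.4% had both induced libraries below both uninduced ones and 31.3% above. By that measure 14 Mediator and 10 TAF genes were below and 5 and 6 above. MED7 and MED18, which fell steeply along the chase in both arms, had differences of -0.31 and -0.24 and did not pass. MED11 and TAF7 passed in each of the 36 alternatives run for them, and MED10 in 13. The 6 Mediator genes became 2 without uninduced replicate 1 at 6 h, 2 without induced replicate 1 at 6 h and 3 without induced replicate 2 at 6 h, and the 3 TAF genes became 1 without either replicate 1 library at 6 h.

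**Figure D3:**
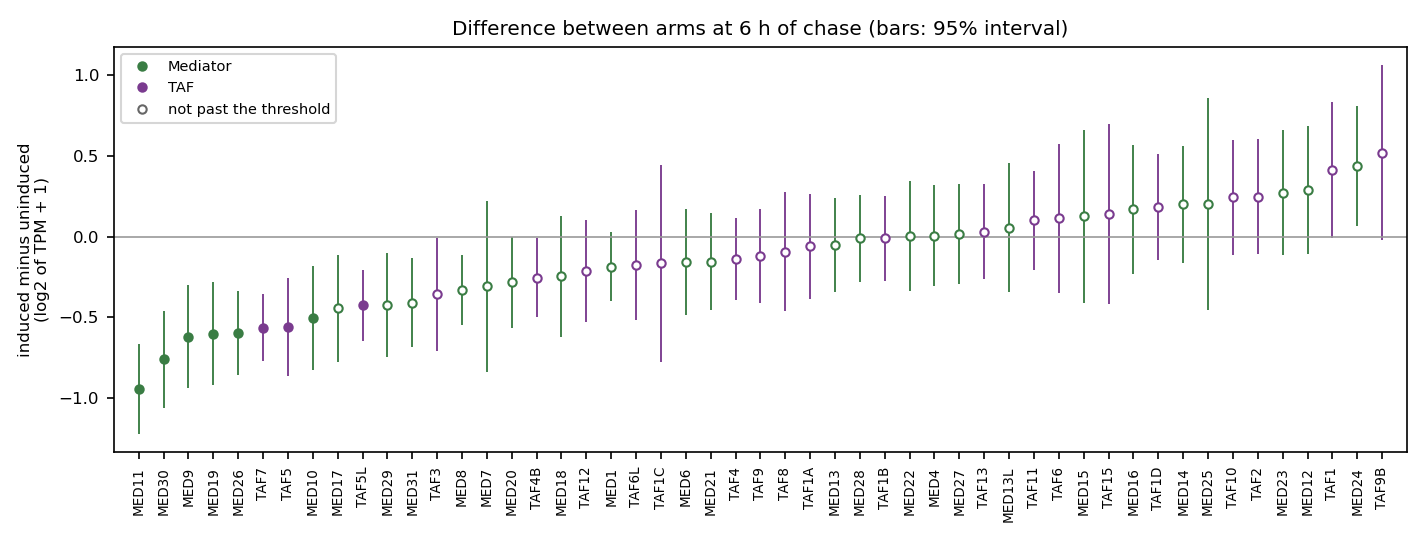
Induced minus uninduced level at 6 h of chase for each member (vertical axis, log2 of TPM + 1) with its 95% interval, sorted, with filled points past the threshold. The 9 filled points run from MED11 at -0.94 to TAF5L at -0.43, and no filled point lies above 0.

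At 0 h of chase no member differed between the arms by limma's test, where 0.0298% of all genes did, and 1 member had an unadjusted p under 0.05, against 881 of 13416 genes. That member was TAF13, the histone-fold partner of TAF11, with 64.9 and 70.64 TPM in the uninduced and 81.47 and 96.18 in the induced libraries, a difference of 0.38 (95% interval 0.087 to 0.68, adjusted p = 0.626). MED26 had 164.64 and 166.9 against 134.02 and 144.64 TPM, a difference of -0.25 (adjusted p = 0.787), and TAF2 had 0.27 (adjusted p = 0.841). MED26 and TAF13 did not overlap between the arms, while the 2 arms of TAF2 did. At 6 h, 28.4% of all genes were so separated below and 31.3% above. Those shares do not measure 0 h, where 0.0298% of genes were called, against 8.04% lower and 1.10% higher at 6 h. The share at 0 h was not counted. MED11 was at 31.19 and 33.42 against 32.91 and 32.82 TPM.

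In 2 comparisons added after the data were seen, MED11 alone of the 51 passed. Its difference between arms at 6 h minus that at 0 h was -0.97 (SE 0.19, adjusted p = 0.0173), where 1.43% of all genes were lower. Its change from 2 to 6 h was -1.81 in induced and -0.78 in uninduced cells, a difference of -1.03 (SE 0.19, adjusted p = 0.0283), where 0.358% of all genes were lower. Its induced values were 32.91 and 32.82 TPM at 0 h, 32.98 and 28.75 at 0.5 h, 36.58 and 34.35 at 1 h, 32.54 and 36.98 at 2 h, 14.83 and 18.89 at 4 h, and 9.03 and 9.34 at 6 h. The arms overlapped at 0, 1 and 2 h, and the induced libraries lay below the uninduced ones at 0.5, 4 and 6 h. For the mean of 4 and 6 h, 11 members were lower and 1, MED24, was higher, where 12.0% and 4.19% of all genes were.

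Over the mean of all 6 times, 10 members were lower and 5 higher in induced cells, where 11.4% and 14.3% of all genes were. MED26 had the lowest difference, -0.42 (SE 0.050, adjusted p = 2.51e-05), with a lower mean in induced cells at 6 of 6 times. MED9 was likewise lower at 6 of 6, with -0.32 (adjusted p = 0.00126), and MED11 (-0.34), MED30 (-0.30), TAF7 (-0.24), MED19 (-0.21), TAF5 (-0.20), MED29 (-0.18) and TAF5L (-0.16) followed. The MED29 call was lost under 23 of its alternatives, and those of MED24 and MED12, below, under 19 and 11. TAF6L, of SAGA, had -0.22 (adjusted p = 0.0207), lower at 6 of 6 times. TAF1, the largest TFIID subunit, was higher by 0.36 (SE 0.081, adjusted p = 0.00427) and at 6 of 6 times, with 17.07 and 17.4 TPM uninduced against 23.52 and 23.04 induced at 6 h. MED12 was higher by 0.24 (adjusted p = 0.0286), with 7.65 and 6.48 against 8.35 and 9.32 TPM at 6 h. TAF13 and MED24 were higher by 0.21 each (adjusted p = 0.0131 and 0.0415), and TAF1D by 0.20 (adjusted p = 0.0257). The 2 higher Mediator genes, MED12 and MED24, became 0, 1 or 4 on leaving out any 1 of 17 of the 24 libraries. Induced replicate 2 at 0 and 0.5 h had 27.5% of TPM in the 3 noncoding RNAs; without those 2 libraries 6 Mediator and 6 TAF genes were higher, and with the 3 RNAs removed from all libraries 6 and 4 were. The part of that share in the result of leaving out the libraries was not tested.

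Paralogs that were both kept mostly had slopes of like sign. Without induction, MED13 and MED13L rose at 0.17 and 0.26, TAF4 and TAF4B at 0.15 and 0.096, TAF6 and TAF6L at 0.15 and 0.12, and TAF9 and TAF9B at 0.11 and 0.13. TAF5 had 0.026 and did not pass, and TAF5L had 0.053. MED12, TAF1 and TAF7 rested on 1 gene each, since the paralogs MED12L, TAF1L and TAF7L stayed below 1 TPM in every library, at most 0.02, 0.43 and 0.66 TPM. Reads of near-identical stretches can be divided between paralogs, so these pairs carry that uncertainty.

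Sums per gene covered unlike transcripts in 3 members. Of 51 members, 19 had more than 1 transcript kept, and 74 member transcripts were fitted alone among 21749, of which 26.2% rose and 14.1% fell in uninduced cells. TAF5L, TAF12 and MED8 each had a rising and a falling transcript. TAF5L NM_001025247 had 10.13 and 9.22 TPM at 0 h, 37.2 and 35.87 at 1 h, 59.78 and 65.42 at 2 h, 84.33 and 92.95 at 4 h, and 93.99 and 87.72 at 6 h, for a slope of 0.47 (SE 0.085, adjusted p = 0.000114), rank 222 from the highest. It made up 6.91% ± 0.86 (SD, n = 2) of TAF5L at 0 h and 52.9% ± 1.0 at 6 h, and in induced cells 8.76% ± 1.7 and 63.1% ± 1.5. TAF5L NM_014409 fell at -0.11 (SE 0.014, adjusted p = 1.68e-06) uninduced and -0.23 induced. Its slope difference was -0.12 (SE 0.020, adjusted p = 0.0264), where 0.0276% of transcripts were lower, and its 6 h difference was -0.77 (adjusted p = 0.000381). When only the most abundant transcript of each gene was used, TAF5L therefore had a slope of -0.11. For TAF12, NM_005644 rose at 0.26 and NM_001135218 fell at -0.17; for MED8, NM_201542 rose at 0.058 and NM_001001653 fell at -0.55, the last with libraries listed at 0. How reads were divided between transcripts is an estimate of the authors' tool.

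**Figure D4:**
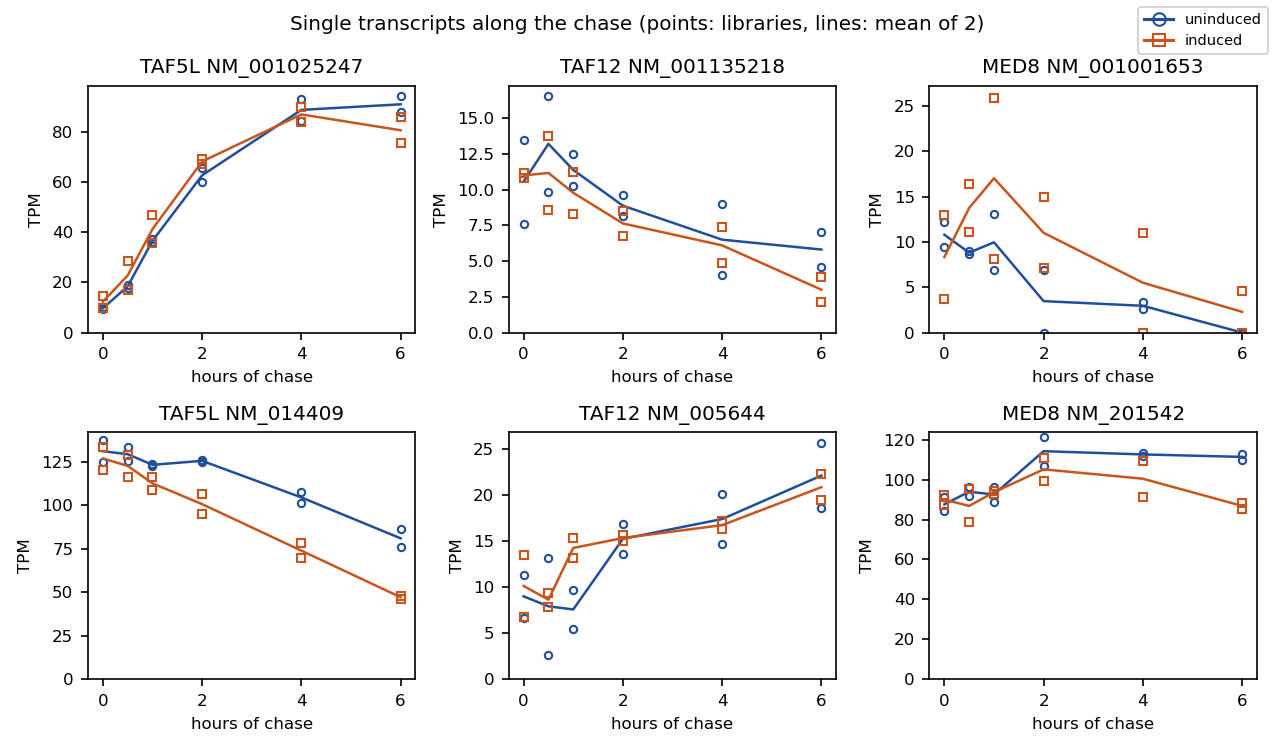
TPM (vertical axis, from 0) of the 2 kept transcripts of TAF5L, TAF12 and MED8 against hours of chase, with libraries as points and the mean of 2 as a line, uninduced (circles) and induced (squares). TAF5L NM_001025247 climbs from about 9.68 to 90.9 TPM in uninduced cells while NM_014409 falls in both arms.

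Genes that act with these complexes gave a frame for the members. Slopes and their counts are those of uninduced cells unless stated, where 42.8% of all genes rose and 22.3% fell. Of the kinase module partners, CDK8 rose at 0.20 and CCNC, cyclin C, at 0.095, beside their 3 rising MED partners, and CDK19 had 0.024 and did not pass. TBP, the core of TFIID, rose at 0.089 uninduced (SE 0.023), had 0.0085 induced without passing, and was lower in induced cells at 6 h by -0.41 (SE 0.11, adjusted p = 0.0295), with 64.8 and 58.59 against 44.08 and 48.32 TPM. In its list of 5 with regulators of TBP, 4 rose and none fell; DR1, a TBP-binding repressor, had the steepest slope at 0.13, followed by DRAP1 at 0.10. Of 17 general transcription factor genes 11 rose and 1 fell, with CDK7, the kinase of TFIIH, at 0.20, GTF2A1 at 0.20 and GTF2E1 lowest at -0.17. At 6 h CDK7 (-0.63), GTF2B (-0.49) and MNAT1 (-0.43) were lower in induced cells and no other of the 17 passed. Of all genes, 8.04% were lower and 1.10% higher at 6 h. Of 14 SAGA genes 9 rose and none fell, led by the acetyltransferase KAT2A (0.28) and the deubiquitinase USP22 (0.23), and none passed between arms at 6 h. In induced cells, 3 genes of the TBP list rose and 1 fell. Among general factors 9 rose and 3 fell there, and among SAGA genes 7 rose and 2 fell. Of all genes, 41.6% rose and 29.0% fell in that arm. CDK19, GTF2E1, GTF2B and MNAT1 were named after their values were seen.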

How the data were processed

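BrU-labelled cytoplasmic RNA of 24 libraries was measured by sequencing. The authors deposited TPM per RefSeq transcript, rounded to 2 decimals; RSEM 1.3.0, Bowtie2, Trim Galore and the hg19 build are listed in the submitters' processing notes, and their roles and settings are not given in the sources used here. TPM was summed per symbol (48009 transcripts, 25341 symbols; 3 transcripts without a symbol were left out), genes with a mean under 1 TPM were dropped, and log2(TPM + 1) was fitted with limma 3.58.1 (trended variance) in R 4.3.3. One model had a line per arm against hours (20 residual degrees of freedom) and the other a mean per group (12). P-values are two-sided and Benjamini-Hochberg adjusted over 13416 genes, or 21749 transcripts, and were called under 0.05. Fold changes on this scale understate changes of low genes; folds of means are plain TPM ratios. Scripts were tested on simulated data. Members and lists were chosen with earlier results of these data known. Named with values were the 4 highest and 4 lowest uninduced Mediator slopes, the 3 highest and 3 lowest TAF slopes, every member called between arms (or the 3 smallest p), paralog pairs, and TBP with the 2 largest slopes of each context list; other members are named to account for all. Alternatives were other pseudocounts, filters, scalings, transcript choices, times, variance models, a replicate block and each library left out.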

Additional observations from a re-analysis of the deposited data

Results flagged for a closer look

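MED11 differed between the arms in 2 comparisons added after the data were seen, and 1 transcript of TAF5L differed in slope. The slope difference of MED11 itself did not pass (-0.145, limma adjusted p = 0.15). The MED11 difference between arms at 6 h minus that at 0 h was -0.968 (SE 0.187, limma adjusted p = 0.0173). It passed in 19 of 24 fits that each left out 1 library, with adjusted p from 0.0107 to 0.0818. The calls were lost without uninduced replicate 1 at 0 h (0.074) or 6 h (0.052), induced replicate 1 at 0 h (0.0804) or 6 h (0.0818), and uninduced replicate 2 at 6 h (0.0624).

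The MED11 change from 2 to 6 h differed by -1.03 (SE 0.187, limma adjusted p = 0.0283) and passed in 17 of 24 such fits, with estimates from -1.12 to -0.94 and adjusted p from 0.0216 to 0.196. The call was lost without uninduced replicate 1 at 2 h, uninduced replicate 1 at 6 h, induced replicate 1 at 6 h, uninduced replicate 2 at 2 h, uninduced replicate 2 at 6 h, induced replicate 2 at 2 h or induced replicate 2 at 6 h.

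The slope of TAF5L NM_014409 differed by -0.121 (SE 0.0205, limma adjusted p = 0.0264) and passed in 16 of 24 such fits, with estimates from -0.14 to -0.11 and adjusted p from 0.0168 to 0.12. The call was lost without uninduced replicate 1 at 0 h, uninduced replicate 1 at 0.5 h, uninduced replicate 1 at 4 h, uninduced replicate 1 at 6 h, induced replicate 1 at 6 h, uninduced replicate 2 at 0 h, uninduced replicate 2 at 4 h or induced replicate 2 at 6 h. The directions were the same in all of these fits.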

How the results depend on the processing

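Counts of called genes were recomputed under the alternatives, the chase to 4 h for slopes alone and each later contrast for 1 comparison, and counts as deposited follow in brackets. The sign of a called value changed in 9 cases: uninduced slopes turned to -0.011 (MED1), -0.018 (MED27), -0.013 (TAF1D) and -0.023 (TAF5L) under quantile normalization, TAF5L had -0.11 and early changes were -0.050 (MED4) and -0.060 (TAF5L) with the most abundant transcript, and induced slopes were 0.0093 (MED10) and 0.015 (MED19) with the chase cut to 4 h. Over single called members, 1992 values kept sign and call, 251 lost the call and 9 changed sign under these settings; with libraries left out 4123 kept both and 381 lost the call.

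For uninduced slopes, quantile normalization gave 11 lower Mediator (7) and 7 higher TAF genes (16). Over all genes it gave 4699 higher (5746) and 3112 lower (2993). Median-of-ratios scaling, protein-coding transcripts and the most abundant transcript each gave 10 higher TAF genes (16). The chase to 4 h gave 4 lower Mediator (7) and 0 lower TAF genes (3), where all lower genes numbered 1532 (2993). In induced cells it gave 2 lower TAF genes (4), where all lower genes numbered 2578 (3897). For the slope difference, 3 Mediator genes and 1 TAF gene were lower (0 and 0) with protein-coding transcripts and without RMRP, MIR6723 and RPPH1, 1 TAF gene with the most abundant transcript, 2 Mediator genes without induced replicate 2 at 0 and 0.5 h, and 1 with each of the later contrasts, chosen after seeing the data. At 6 h, 10 Mediator genes were lower (6) with protein-coding transcripts or without the 3 noncoding RNAs, and 1 was higher (0) under quantile, median-of-ratios and the mean of 4 and 6 h. For the mean over times, higher Mediator genes (2) numbered 1 with no filter, 4 under median-of-ratios, 6 with protein-coding transcripts, without the noncoding RNAs or without the 2 induced libraries, and 0 with the most abundant transcript; higher TAF genes (3) numbered 5 with protein-coding transcripts and 6 without those 2 libraries, and lower ones (4) 2.

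For changes from 0 to 2 h in uninduced cells, lower Mediator genes (2) numbered 1 at a pseudocount of 0.1, with no filter, with untrended variance and without the 2 induced libraries; higher TAF genes (6) numbered 0 under quantile and median-of-ratios and 3 with protein-coding transcripts, and lower ones (0) 3, 2 and 1. In induced cells higher Mediator genes (6) numbered 2 under quantile and median-of-ratios, 3 with protein-coding transcripts, without the noncoding RNAs and without the 2 libraries, and 1 with the most abundant transcript; lower ones (2) numbered 6, 5, 4 and 4 under quantile, median-of-ratios, protein-coding and without the noncoding RNAs, and 1 with no filter, the most abundant transcript, untrended variance and without the 2 libraries. Higher TAF genes (5) numbered 1 under quantile and 2 under the other 5 settings that moved them, and lower ones (0) 2 under quantile and median-of-ratios and 1 with the most abundant transcript. From 2 to 6 h in uninduced cells, higher TAF genes (7) numbered 4 under quantile and 3 with protein-coding or the most abundant transcripts, and lower ones (1) 3 with protein-coding transcripts and 2 under quantile, median-of-ratios, without the noncoding RNAs and with the most abundant transcript; in induced cells higher TAF genes (8) numbered 5 with no filter, 2 with protein-coding transcripts, and 3 without the noncoding RNAs or with the most abundant transcript.

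With 1 library or replicate left out, uninduced slopes gave 13 to 16 higher and 6 to 7 lower Mediator genes and 13 to 16 higher and 1 to 3 lower TAF genes; induced slopes 12 to 13, 7 to 10, 10 to 13 and 2 to 4; the slope and 0 h differences 0 to 0 throughout; the 6 h difference 0 higher and 2 to 8 lower Mediator and 0 higher and 1 to 3 lower TAF genes; the mean difference 0 to 4, 5 to 7, 2 to 4 and 4 to 4. Changes from 0 to 2 h gave, in the same order, 3 to 6, 1 to 2, 1 to 6 and 0 to 0 uninduced and 3 to 7, 1 to 3, 1 to 6 and 0 to 0 induced, and from 2 to 6 h 5 to 8, 6 to 6, 1 to 8 and 1 to 2 uninduced and 3 to 9, 8 to 11, 1 to 9 and 2 to 5 induced. A group left with 1 library was assumed to vary like the others. The cause of these shifts was not tested.

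The main models had no term for replicate number. Deviations of same-numbered samples correlated over 0.1 in 29 of 66 pairs of groups (median 0.097, lowest -0.036, highest 0.25). Between arms at 1 time, 3 of 6 pairs were over 0.1 (median 0.12, lowest 0.020), so same-numbered samples were weakly alike. Over all genes, a replicate block gave 406 higher and 1464 lower genes at 6 h (148 and 1078). For the slope difference it gave 2 higher and 97 lower (1 and 45). With a replicate block, lower Mediator genes at 6 h numbered 10 (6) and higher TAF genes 1 (0), higher Mediator and TAF genes in the mean difference 5 (2) and 5 (3), and Mediator genes rising from 2 to 6 h in uninduced cells 11 (7). Depth is unknown, so counting error cannot be set beside any value, and with 2 libraries per group the spread is pooled over groups.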
